A study of Mus musculus with 7 samples.

Results

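The 10 genes described here encode proteins of innate defence and the acute phase response that the lactating mammary gland makes or secretes into milk. They are *Ltf* (lactoferrin), *Lcn2* (lipocalin 2), *Saa1*, *Saa2* and *Saa3* (serum amyloid A proteins), *Lbp* (LPS binding protein), *Cd14* (its partner receptor), *S100a8* and *S100a9* (the subunits of calprotectin) and *Spp1* (osteopontin). They were taken by name from the annotation. All 10 were found among the 37310 genes counted, and all 10 were among the 17175 genes that passed the filter of at least 5 counts in at least 4 of 7 libraries.

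RNA of whole mammary glands at lactation day 1 from C57BL/6 mice was sequenced in 3 libraries labelled WT and 4 labelled *Tardbp* KO. According to the study's methods, the KO mice carried floxed *Tardbp* alleles (*Tardbp* fl/fl) and a WAP-Cre transgene, while the WT mice were *Tardbp* wt/wt and carried the same transgene, so both groups express Cre. The whey acidic protein promoter of WAP-Cre is active in luminal epithelium from mid-pregnancy to lactation, so that the other cells of the gland keep *Tardbp*, which encodes the RNA-binding protein TDP-43. The age of the mice is not given in the sources used here. The comparison asks whether RNA of the defence genes differed between glands labelled with and without epithelial deletion of TDP-43.

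Lactoferrin and lipocalin 2 keep iron from bacteria, the former by binding iron itself and the latter by binding bacterial siderophores. Serum amyloid A proteins are induced steeply in liver and in epithelia by IL1, IL6 and TNF through the factors NF-kB, C/EBP and STAT3, and SAA3 is the form known from mammary epithelium and colostrum. LBP hands bacterial lipopolysaccharide (LPS) to CD14, which passes it to the TLR4 and MD-2 receptor complex. Calprotectin, the S100A8 and S100A9 dimer, chelates zinc and manganese and is most abundant in neutrophils, and osteopontin is a phosphoprotein of milk that binds integrins and CD44.

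The libraries held 36007737 to 42811337 counts, and mates of a read pair were counted separately. Levels are given as CPM, counts relative to library size, scaled with the TMM factors of edgeR, which adjust for differences in library composition. *Tardbp* itself was at 223, 178 and 159 CPM in WT replicates 1 to 3 and at 214, 176, 154 and 208 CPM in KO replicates 1 to 4, a log2 difference of 0.01 with a 95% interval from -0.40 to 0.42. The gene total, which sums all exons and all cell types, therefore does not separate the labels, and the genotypes below are those of the labels. All 8 luminal epithelium markers and all 8 milk protein genes examined were detected, and the milk protein genes took 28.5% to 38.2% of counts in WT and 13.9% to 24.1% in KO. The study describes the samples as coming from separate mice of each genotype. WT replicates 1 to 3 were run on lanes 3, 4 and 2 and KO replicates 1 to 4 on lanes 1, 5, 4 and 4, so that lane and genotype cannot be told apart outside lane 4.

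None of the 10 genes differed between genotypes by edgeR's quasi-likelihood test. A call needed an adjusted p below 0.01 (Benjamini-Hochberg) together with a log2 difference of more than 1 in size, and the same test called 0% of all 17175 genes. At an unadjusted p under 0.05 it found 3674 genes, with 10.7% of all genes higher and 10.7% lower in KO, and among the 10 genes 1 (*S100a8*) was lower and none was higher. edgeR's exact test at the same limits called 1.04% of all genes higher and 1.44% lower in KO, and DESeq2 called 568 genes, but neither called any of the 10. In none of the 10 did the WT and KO libraries separate, whereas all KO libraries lay above all WT libraries in 9.07% of all genes and below them in 9.62%. The median log2 fold change of the 10 genes was 0.04, beside 0.05 over all genes tested. Fewer cells of a type and less RNA per cell cannot be told apart in these whole-gland libraries.

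**Figure D1:**
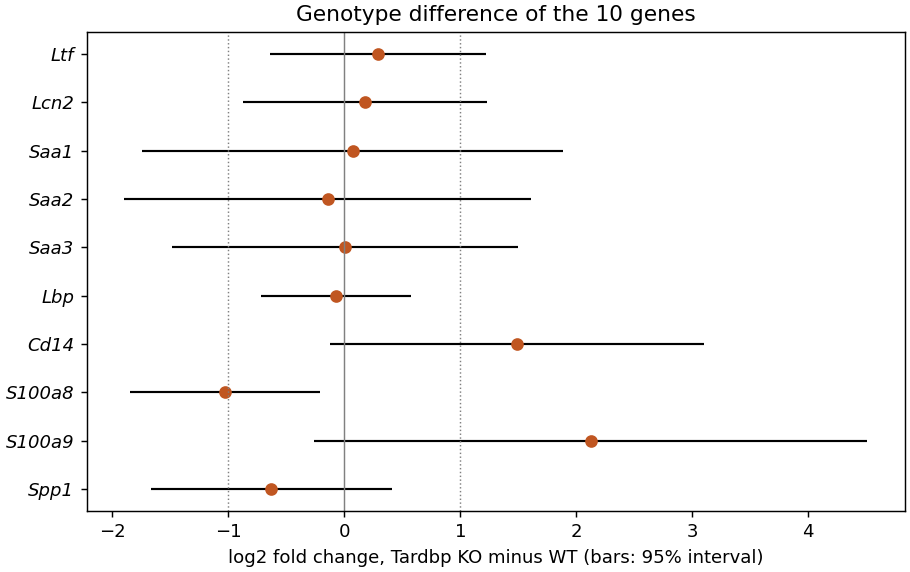
Log2 fold change (horizontal axis, *Tardbp* KO minus WT) of each of the 10 genes with its unadjusted 95% interval (bars) from edgeR's quasi-likelihood fit to 3 WT and 4 KO libraries. The dotted lines mark a log2 fold change of 1 in either direction. The interval of *S100a8* (-1.84 to -0.21) is the only one of the 10 that does not include 0, and the widest are those of *S100a9*, *Saa1*, *Saa2*, *Cd14* and *Saa3*.

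Among the iron-withholding proteins, *Ltf* (chr9:110921796-110945270, plus strand, NCBIM37) was measured at 1164, 2742 and 1922 CPM in WT replicates 1 to 3 and at 1255, 2307, 2137 and 3786 CPM in KO replicates 1 to 4. The first replicate of each genotype was the low one, KO replicate 4 was the high one, and the groups overlapped. The log2 fold change was 0.29 with a standard error of 0.41 (adjusted p = 0.732, quasi-likelihood test), and an exact two-sided permutation test of the genotype labels gave p = 0.6, where 35 assignments are possible and 0.0286 is the smallest value they allow. *Lcn2* (chr2:32240153-32243317, minus strand) was at 1212, 3248 and 2910 CPM in WT and at 1385, 2460, 2535 and 4742 CPM in KO. Its order of libraries was nearly that of *Ltf*, with WT replicate 1 lowest and KO replicate 4 highest. The log2 fold change of *Lcn2* was 0.18 with a standard error of 0.46 (adjusted p = 0.863, exact permutation p = 0.8286). The ratio of *Lcn2* to *Ltf* CPM stayed between 1.04 and 1.51 in the 7 libraries, while the level of *Ltf* spanned 3.25-fold and that of *Lcn2* spanned 3.91-fold.

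The serum amyloid A genes lie close together on chromosome 7 and varied more than the iron-binding proteins. *Saa1* (chr7:53995871-53998350, minus strand) was at 406, 5364 and 2483 CPM in WT and at 964, 2026, 2534 and 6041 CPM in KO. WT replicate 2 and KO replicate 4 were high, WT replicate 1 and KO replicate 1 were low, and the full range of KO except its highest library fell inside that of WT. *Saa1* differed by 0.07 on the log2 scale with a 95% interval from -1.74 to 1.89 (adjusted p = 0.972, exact permutation p = 0.714). Within WT alone the highest library held 13.2 times the *Saa1* level of the lowest, and within KO 6.27 times.

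*Saa2* (chr7:54007203-54009684, plus strand), the close paralogue of *Saa1*, was at 464, 4208 and 2451 CPM in WT and at 857, 923, 1935 and 4878 CPM in KO. The same 2 libraries were high and the same 2 low as for *Saa1*, but KO replicate 2 was also low. For *Saa2* the log2 fold change was -0.14 with a 95% interval from -1.90 to 1.61 (adjusted p = 0.939, exact permutation p = 1). *Saa1* counts were 0.876 to 1.31 times those of *Saa2* in 6 libraries and 2.19 times in KO replicate 2. The annotated coding sequences of the pair are 95.1% identical, so reads could pass between them, although of the 50-base windows of the transcripts 10.8% in *Saa1* and 9.09% in *Saa2* were shared with another gene and no 100-base window was. Reads mapping to several places were not counted, and no exon of the 10 genes overlaps an exon of another gene.

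*Saa3* (chr7:53967368-53971046, minus strand) was at 17.7, 159 and 72.6 CPM in WT and at 50.8, 75.2, 47.4 and 161 CPM in KO. It repeated the high values of WT replicate 2 and KO replicate 4, which differed by little, and the low value of WT replicate 1. KO minus WT came to 0.01 on the log2 scale with a standard error of 0.66 (adjusted p = 0.997, exact permutation p = 0.8). The ratio of *Saa3* to *Saa1* CPM was lowest in KO replicate 3 at 0.0187 and highest in KO replicate 1 at 0.0527.

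**Figure D2:**
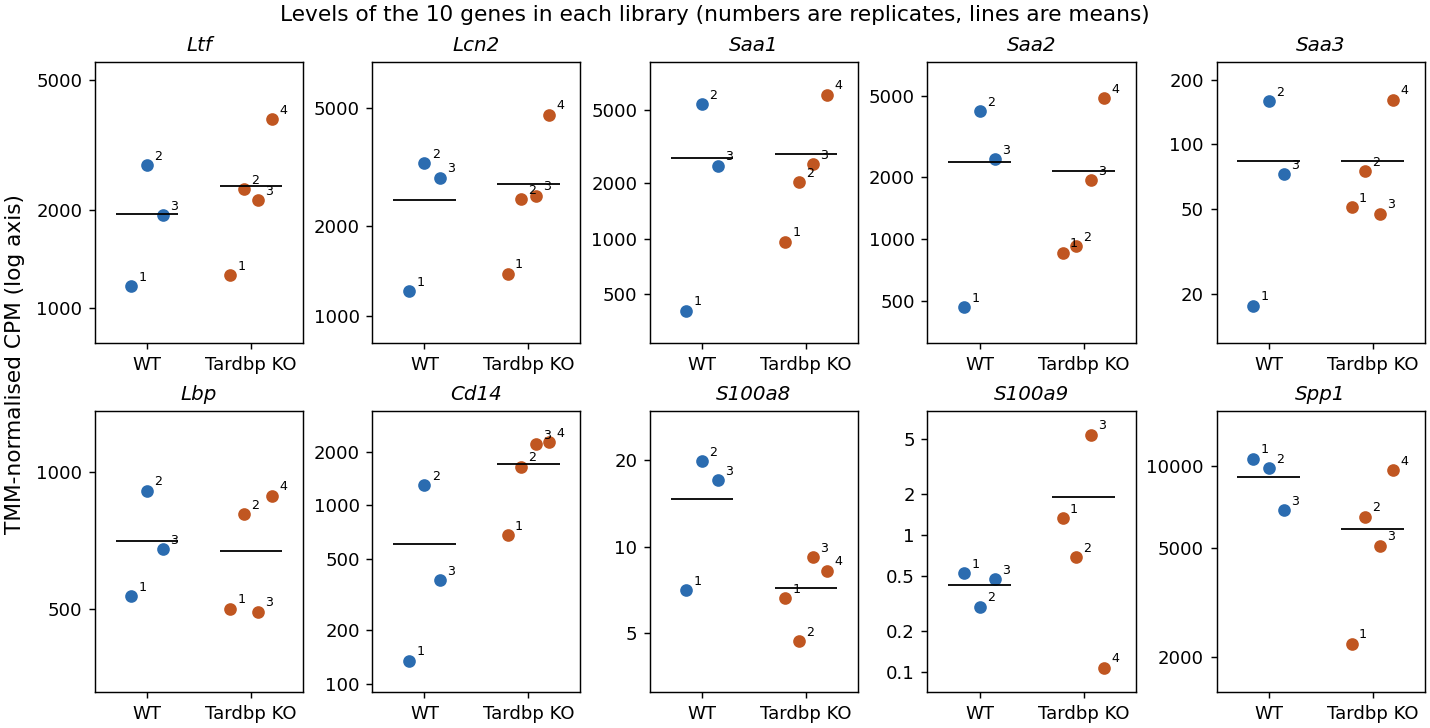
TMM-normalised CPM (vertical log axes, 1 per gene) of the 10 genes in 3 WT (blue) and 4 *Tardbp* KO (orange) libraries; numbers are replicates and horizontal lines are group means. WT replicate 1 is the lowest library for *Ltf*, *Lcn2*, *Saa1*, *Saa2*, *Saa3* and *Cd14*, KO replicate 4 is the highest for the same 6 genes, and the genotypes overlap in every panel.

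The iron-binding and serum amyloid genes thus shared a profile over libraries that did not follow genotype. Pairwise Pearson correlations of log2(CPM + 1) among *Ltf*, *Lcn2*, *Saa1*, *Saa2* and *Saa3* were 0.863 to 0.969 over the 7 libraries, and 0.875 to 0.974 after the mean of each genotype was taken out; the points share libraries and scaling factors, and the values are descriptions. The median deviation of these 5 genes from their WT mean was -1.69, 1.32 and 0.37 on the log2 scale in WT replicates 1 to 3 and -0.70, 0.21, 0.20 and 1.43 in KO replicates 1 to 4. Genotype accounted for 0.0140% (*Saa2*) to 5.56% (*Ltf*) of the variance of log2(CPM + 1) of these genes. Among other secreted defence and acute phase genes, *Lrg1*, *Slpi*, *Muc1* and *Ptx3* also had WT replicate 1 lowest and KO replicate 4 highest. *Lrg1* was at 140, 796 and 690 CPM in WT and at 224, 636, 665 and 901 CPM in KO. The remaining tested genes of that list did not have both. The share of all genes with these extremes was not counted. Genes outside the defence lists had them too, such as *Brms1* (39.3 CPM in WT replicate 1, 76.1 CPM in KO replicate 4).

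The spread of the *Saa* genes also stood out against other genes, that of *Lcn2* and *Ltf* less so. The fitted dispersion of *Saa1*, which is the variation between libraries of a genotype beyond counting error, exceeded that of 96.8% of all genes tested, and that of *Saa2*, *Saa3*, *Lcn2* and *Ltf* exceeded 96.4%, 93.7%, 78.3% and 71.7% of them. Counting error was small, since *Saa1* had 10802 to 226506 counts per library and *Saa3* had 471 to 6049. High dispersion was not particular to these 5 genes, since that of *S100a9* exceeded 99.0% and that of *Cd14* 94.2% of all genes tested. The median deviation of 8 luminal epithelium markers was -0.23, 0.26 and -0.03 in WT and 0.18, 0.26, 0.44 and 0.66 in KO. It shared the lowest and the highest library with the profile but not the order between them. The markers differed among themselves. The tight junction gene *Cldn3* ranged from 68.1 CPM in WT replicate 1 to 495 CPM in KO replicate 4, *Cldn7* stayed between 108 and 160 CPM, and *Elf5*, a transcription factor of the alveolar lineage, was highest in WT replicate 1 at 1108 CPM and lay between 434 and 864 CPM in KO. The milk protein share of counts was highest in WT replicate 1 at 38.2%. The part of these values in the profile was not tested.

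**Figure D3:**
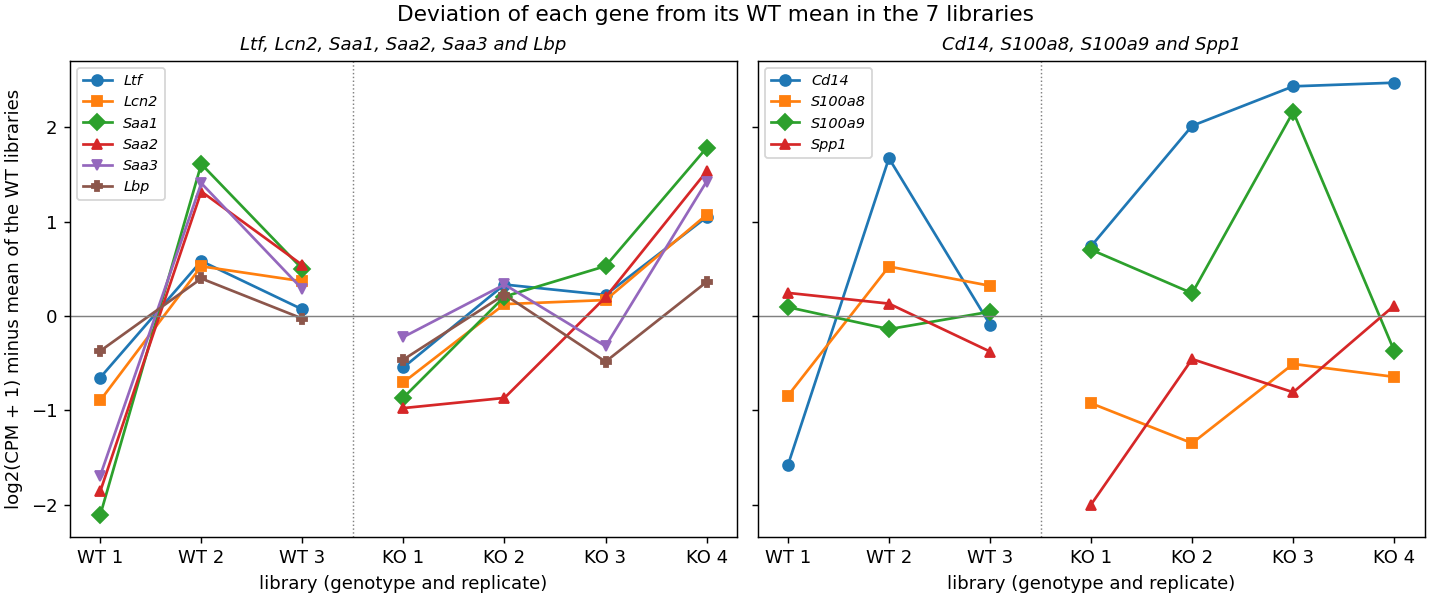
Log2(CPM + 1) of each of the 10 genes minus its mean over the 3 WT libraries (vertical axis) in each library (horizontal axis); lines join the libraries of a genotype only to guide the eye, since replicates have no order. In the left panel *Ltf*, *Lcn2* and the *Saa* genes share their lowest and highest libraries, with *Saa1* from -2.11 in WT replicate 1 to 1.78 in KO replicate 4. They part in between, and in KO replicate 2 *Saa2* is at -0.87, *Saa1* at 0.21 and *Saa3* at 0.33. In the right panel *Cd14* lies above its WT mean in all 4 KO libraries and *S100a8* below it.

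The stretches of sequence just upstream of these 5 genes are shown because the genes varied together and because C/EBP factors are known regulators of serum amyloid A. RefSeq promoter sequences (GRCm38.p6, 250 bases before to 50 after the start) were found for 8 of the 10 genes, all but *Lbp* and *Cd14*. They were searched on both strands for the C/EBP core TTGCNNAA, an NF-kB pattern of 10 letters (GG, 3 free letters, TT, 1 free letter and CC) and the STAT letters TTCNNNGAA, none of which overlapped in the genes shown. Capitals mark the C/EBP match in 60 bases of each promoter, written 5′ to 3′ on the strand of the gene. The coordinates in the order below are chr9:111019191-111019250 (plus strand), chr2:32387922-32387981 (minus), chr7:46743129-46743188 (minus), chr7:46751624-46751683 (plus) and chr7:46715742-46715801 (minus).
Ltf: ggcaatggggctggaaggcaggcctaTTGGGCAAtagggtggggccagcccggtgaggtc
Lcn2: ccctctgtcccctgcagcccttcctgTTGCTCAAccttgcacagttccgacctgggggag
Saa1: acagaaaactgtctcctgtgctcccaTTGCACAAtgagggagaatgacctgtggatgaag
Saa2: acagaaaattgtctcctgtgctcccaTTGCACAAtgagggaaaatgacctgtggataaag
Saa3: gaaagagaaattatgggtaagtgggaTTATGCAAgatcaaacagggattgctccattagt

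All 5 held a C/EBP match, as did 10.8% of 32851 mouse promoters of the same length. The matches began 75 bases before the start in *Ltf*, 216 in *Lcn2*, 182 in *Saa1*, 183 in *Saa2* and 99 in *Saa3*. *S100a9* also held one, 236 bases before its start, and so did the second annotated start of *Spp1*, whereas these letters are not in the window of *S100a8* or of the first *Spp1* start. A match is a run of letters and not a measured site. The 250 bases before the start of *Saa1* and *Saa2* are 95.6% identical, and the C/EBP match is the same in both.

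The NF-kB letters, found in 15.3% of all promoters, were in *Saa1*, 91 bases before its start, and at the first *Spp1* start, 81 bases before it. The aligned 250 bases before the start of *Saa1* and *Saa2* hold 11 mismatches in all, and some lie outside these letters. The following 50 bases of *Saa1* (chr7:46743042-46743091, minus strand) hold the NF-kB match in capitals, above the matching stretch of *Saa2* (chr7:46751721-46751770, plus strand).
Saa1: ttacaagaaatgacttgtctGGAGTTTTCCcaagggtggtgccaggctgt
Saa2: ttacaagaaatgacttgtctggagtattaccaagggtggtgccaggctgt
The *Saa2* stretch holds no match to these letters, and binding at either stretch was not measured. The STAT letters, present in 8.30% of promoters, were in none of the windows of the 8 genes.

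Of the genes of LPS sensing, *Lbp* (chr2:158132229-158158588, plus strand), whose product extracts LPS from bacterial membranes, was at 533, 908 and 676 CPM in WT and at 500.3, 807, 492 and 885 CPM in KO. It was the steadiest of the 10 genes, with a range of 1.84-fold over all libraries, and the groups overlapped throughout. For *Lbp* the log2 fold change was -0.07 with a 95% interval from -0.72 to 0.58 (adjusted p = 0.915, exact permutation p = 0.771). It correlated with *Ltf* at 0.801 and with *Saa1* at 0.731 over the 7 libraries, and unlike them it was lowest in KO replicate 3.

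*Cd14*, on the minus strand of chromosome 18, encodes the coreceptor that receives LPS from LBP. It was at 135, 1299 and 382 CPM in WT and at 680.2, 1648, 2203 and 2262 CPM in KO. Of the 4 KO libraries, 3 were above every WT library, and KO replicate 1 lay between WT replicates 3 and 2. The mean was 605 CPM ± 613 (SD, n = 3) in WT and 1698 ± 733 (n = 4) in KO, and the log2 fold change was 1.49 with a standard error of 0.71. The difference did not pass adjustment (unadjusted p = 0.0662, adjusted p = 0.268, quasi-likelihood test) and an exact permutation test gave p = 0.114. The value moved when single libraries were left out. Without WT replicate 2 the log2 fold change was 2.71 (adjusted p = 0.0493, quasi-likelihood test). Without WT replicate 1 it was 1.02 (adjusted p = 0.544, same test). With any other library left out it was 1.24 to 1.75 (adjusted p from 0.220 to 0.531, same test). On lane 4 alone, which held WT replicate 2 and KO replicates 3 and 4, the log2 difference was 0.78.

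Genotype accounted for 46.4% of the variance of *Cd14*, the highest share among the 10 genes, followed by *S100a8* at 45.5% and *Spp1* at 29.0%. Within genotypes *Cd14* still followed the shared profile, with a correlation to *Saa1* of 0.933 after genotype means were taken out and of 0.784 before. The ratio of *Cd14* to *Lbp* CPM was 0.254, 1.43 and 0.565 in WT and 1.36, 2.04, 4.47 and 2.56 in KO, so that only KO replicate 1 lay inside the WT range. Macrophages also express *Cd14*, and macrophage markers were at 339 to 480.4 summed CPM in WT and 313 to 731 in KO, highest in KO replicate 2 and lowest in KO replicate 4. Of 14 macrophage markers 13 had a positive log2 fold change, with a median of 0.39. At an unadjusted p under 0.05, 1 was higher and none was lower (10.7% of all genes in each direction). The part of macrophages in the level of *Cd14* was not tested. The level of *Tlr4* itself was 30.4, 43.6 and 27.3 CPM in WT and 27.3, 36.8, 31.8 and 40.9 CPM in KO (log2 fold change 0.02, adjusted p = 0.973).

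The calprotectin subunits differed from the other genes and from each other. *S100a8* (chr3:90472993-90473956, plus strand) was at 7.07, 19.8 and 17.1 CPM in WT and at 6.64, 4.69, 9.19 and 8.27 CPM in KO. WT replicates 2 and 3 were above every KO library, and WT replicate 1 fell among the KO libraries. The log2 fold change was -1.03 with a standard error of 0.36 (unadjusted p = 0.0191, adjusted p = 0.154, quasi-likelihood test), and an exact permutation test gave p = 0.114. DESeq2 gave an adjusted p of 0.0539. The counts behind these values were 188 to 666 per library.

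*S100a9* (chr3:90496554-90499643, minus strand), the partner subunit, was close to the floor with 14, 10 and 16 counts in WT and 50, 30, 264 and 4 counts in KO. In CPM these were 0.526, 0.298 and 0.476 in WT and 1.33, 0.690, 5.40 and 0.107 in KO. KO replicate 3 was the high library and KO replicate 4 the lowest of all 7. KO exceeded WT by 2.13 on the log2 scale (SE 1.05, adjusted p = 0.282, exact permutation p = 0.4), which came to 0.71 without KO replicate 3, with an adjusted p of 0.720.

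Neutrophils carry both subunits, and their markers were scarce. Of 16 neutrophil markers 9 passed the filter on low counts, and those 9 summed to 26.6 to 37.4 CPM in WT and 30.6 to 49.6 CPM in KO. *Cd177*, a neutrophil surface glycoprotein gene, was at 6.88, 12.8 and 11.1 CPM in WT and at 4.03, 2.88, 2.35 and 3.89 CPM in KO, lower in every KO library than in any WT library (log2 fold change -1.64, adjusted p = 0.0678 by the quasi-likelihood test and 0.00020 by edgeR's exact test). As for *S100a8*, its highest levels were in WT replicates 2 and 3. The 9 markers did not share this direction, since 6 had a positive log2 fold change and 3 a negative one (median 0.325). *Hdc* was higher in every KO library than in any WT library (log2 fold change 0.995, adjusted p = 0.143, quasi-likelihood test). *Cd177* and *Hdc* were the only tested markers without overlap (9.62% of all genes lower, 9.07% higher). The neutrophil markers named next were too low to test. *Ly6g*, a surface antigen of mouse neutrophils, had 1 count in KO replicate 3 and none elsewhere. The granule protein gene *Ngp* had 0, 0 and 2 counts in WT and 42, 3, 142 and 2 in KO, and *Camp*, which encodes cathelicidin, had 0, 0 and 3 counts in WT and 22, 4, 48 and 0 in KO. *S100a9* had its highest counts in KO replicates 3 and 1, the libraries in which *Ngp* and *Camp* were highest, while *S100a8* had its highest in WT replicates 2 and 3. Over the 7 libraries *S100a8* and *S100a9* correlated at -0.18, and within genotypes at 0.16. *S100a8* and *Saa2* correlated at 0.875 within genotypes and 0.654 before genotype means were taken out. The part of neutrophils in either gene was not tested. Lymphocyte markers, highest in KO replicates 3 and 1 as well, summed to 40.5 to 58.9 CPM in WT and to 430.3, 72.2, 574 and 129 CPM in KO replicates 1 to 4.

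*Spp1* (chr5:104864137-104870069, plus strand), whose product is a major phosphoprotein of milk, had the highest mean level per length of the 10 genes in WT. It was at 10625.5, 9819 and 6904 CPM in WT and at 2244, 6533, 5119.85 and 9679 CPM in KO. Of the 4 KO libraries, 3 lay below every WT library, KO replicate 1 by the most, and KO replicate 4 lay among WT. The mean was 9116 CPM ± 1958 (SD, n = 3) in WT and 5894 ± 3091 (n = 4) in KO, with a log2 fold change of -0.63 and a standard error of 0.46 (adjusted p = 0.475, exact permutation p = 0.143). Without KO replicate 1 the log2 fold change was -0.36, and without KO replicate 4 it was -1.002. *Spp1* followed the profile of the serum amyloid genes less closely. Its correlation with *Saa1* was 0.259 before and 0.416 after genotype means were taken out. Within genotypes it correlated at 0.357 with *Saa2*, 0.315 with *Saa3*, 0.580 with *Lcn2* and 0.692 with *Ltf*. WT replicate 1, the lowest library for the serum amyloid genes, was its highest. Among KO libraries, replicate 1 was its lowest and replicate 4 its highest, as for *Saa1*. All 8 milk protein genes were lower in every KO library than in any WT library (9.62% of all genes). Their log2 fold changes ran from -1.46 to -0.79, and 6 of them had an unadjusted p under 0.05 (10.7% of all genes lower). The quasi-likelihood test called none of the 8, and edgeR's exact test called 3 as lower in KO (1.44% of all genes).

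Compared per length of exon, the order of the mean levels in WT was *Spp1* (5532 RPKM), *Saa1* (4547), *Saa2* (3892), *Lcn2* (1067), *Ltf* (709), *Cd14* (385), *Saa3* (157), *Lbp* (146), *S100a8* (37.4) and *S100a9* (0.830). In KO it was *Saa1* (4779), *Spp1* (3576), *Saa2* (3522), *Lcn2* (1208), *Cd14* (1080), *Ltf* (865), *Saa3* (158), *Lbp* (139), *S100a8* (18.4) and *S100a9* (3.61). The SD of *Saa1* was 4115 RPKM in WT and 3635 in KO, and most gaps between neighbours were small beside the spread between libraries. The genes were measured in the same libraries, so this spread does not settle the order within a library. *Saa2* exceeded *Lcn2*, and *Lcn2* exceeded *Ltf*, in every library, whereas *Spp1* and *Saa1* changed order between libraries. In WT the gap between neighbours was smaller than the larger of their SDs except from *Lbp* to *S100a8* and from *S100a8* to *S100a9*, and in KO except at those places and from *Ltf* to *Saa3*. Together the 10 genes took 1.08%, 2.36% and 1.51% of counts in WT and 0.814%, 1.79%, 1.94% and 3.01% in KO. *Spp1* alone supplied 0.230% to 0.899% of counts.

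None of the genes of the pathways that induce these proteins was called by the quasi-likelihood test. All 12 transcription factors of the acute phase response examined had a positive log2 fold change, with a median of 0.75, and in 7 of the 12 every KO library was above every WT library (9.07% of all genes). An unadjusted p under 0.05 was found for 8 of the 12, against 10.7% of all genes. *Cebpd*, which encodes an inducible C/EBP factor, was at 35.5, 90.3 and 39.7 CPM in WT and at 138, 133, 114 and 163 CPM in KO, with no overlap. Its log2 fold change was 1.31 with a standard error of 0.32 (adjusted p = 0.0868 by the quasi-likelihood test and 0.00528 by edgeR's exact test). *Fos*, an AP-1 subunit, had a log2 fold change of 1.39 (adjusted p = 0.0887 and 0.00565 by the same tests), and these 2 were the only genes of the list called by the exact test. *Relb*, of the NF-kB family, had the highest log2 fold change of the list at 1.56 (adjusted p = 0.0992, quasi-likelihood test) and *Hif1a* the lowest at 0.02. The highest levels of *Relb* were in KO replicates 1 and 3, the libraries with the most lymphocyte marker RNA.

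*Cebpb*, the other C/EBP factor known for acute phase genes, differed from *Cebpd*. It was at 75.1, 240 and 124 CPM in WT and at 147, 136, 161 and 310.4 CPM in KO, with WT replicate 2 and KO replicate 4 high and the groups overlapping (log2 fold change 0.37, adjusted p = 0.659). These are the libraries that were high for the serum amyloid genes. *Cebpd* (90.3 and 163 CPM) and *Fos* (34.5 and 112 CPM) also had the highest level of each genotype in them. The part of any of these factors in the levels of the serum amyloid genes was not tested.

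Among 12 feedback inhibitors of NF-kB and STAT3, many of which these factors induce, 10 had a positive log2 fold change and the median was 0.70. At an unadjusted p under 0.05, 7 were higher and 1 was lower (10.7% of all genes in each direction), and in 5 every KO library lay above every WT library (9.07% of all genes). *Nfkbie*, an inhibitor of NF-kB, had the highest at 1.79 (adjusted p = 0.108), followed by the ubiquitin-editing enzyme gene *Tnfaip3* at 1.35 (adjusted p = 0.164). Both had their highest levels in KO replicates 1 and 3, at 29.8 and 17.5 CPM for *Nfkbie* and 27.2 and 19.0 CPM for *Tnfaip3*, where the lymphocyte markers were also highest; the part of lymphocytes was not tested. *Sigirr* had the lowest at -0.42.

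Receptors, adaptors and inducing cytokines were less uniform. Of 12 receptors for LPS and cytokines, 4 were higher at an unadjusted p under 0.05 and none lower (10.7% of all genes in each direction), with a median log2 fold change of 0.16. *Osmr*, the oncostatin M receptor, was at 16.0, 43.1 and 30.4 CPM in WT and at 61.4, 83.3, 92.4 and 47.6 CPM in KO, without overlap (log2 fold change 1.25, adjusted p = 0.102), and *Il17ra*, of the IL17 receptor, had a log2 fold change of 0.78 (adjusted p = 0.0947). Of 16 adaptors and kinases, 3 were higher and 4 lower at an unadjusted p under 0.05, again beside 10.7% of all genes each way, with *Traf6* at 0.66 and *Irak1* at -0.85, and the median was 0.04. Of 8 inducers, *Il6*, *Il17a* and *Il22* had 0 counts in all 7 libraries. *Osm* and *Tnf* had log2 fold changes of 2.35 and 1.38 at no more than 1.21 and 4.46 CPM (adjusted p = 0.127 and 0.169, quasi-likelihood test). Both were highest in KO replicates 1 and 3, where the lymphocyte markers were also highest, and the part of lymphocytes was not tested.

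Of 28 other secreted defence and acute phase genes 24 were tested, 2 of which were higher and 2 lower at an unadjusted p under 0.05, with a median log2 fold change of 0.13. These counts are near the 10.7% of all genes found in each direction. *Lpo*, which encodes lactoperoxidase, was at 208, 115 and 199 CPM in WT and at 60.2, 32.3, 54.1 and 47.1 CPM in KO, without overlap. Its log2 fold change was -1.84 with a standard error of 0.26 (adjusted p = 0.0517 by the quasi-likelihood test and 1.41e-07 by the exact test). *Lyz1*, a lysozyme, was at 3.91, 3.57 and 5.56 CPM in WT and at 18.7, 17.9, 14.2 and 4.99 CPM in KO (log2 fold change 1.68, adjusted p = 0.0924 by the quasi-likelihood test and 0.00876 by the exact test). Of 18 genes for receptors of the 10 proteins 15 were tested, 2 were higher and 1 lower at an unadjusted p under 0.05 (10.7% of all genes in each direction), and their median was 0.09. *Ager*, the receptor of S100 proteins known as RAGE, had the lowest log2 fold change at -0.86 (adjusted p = 0.218, quasi-likelihood test). *Itga4*, an integrin subunit that binds osteopontin, had the highest at 1.497 (adjusted p = 0.185, same test). Its highest levels were in KO replicates 3 and 1, as for the lymphocyte markers.

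**Figure D4:**
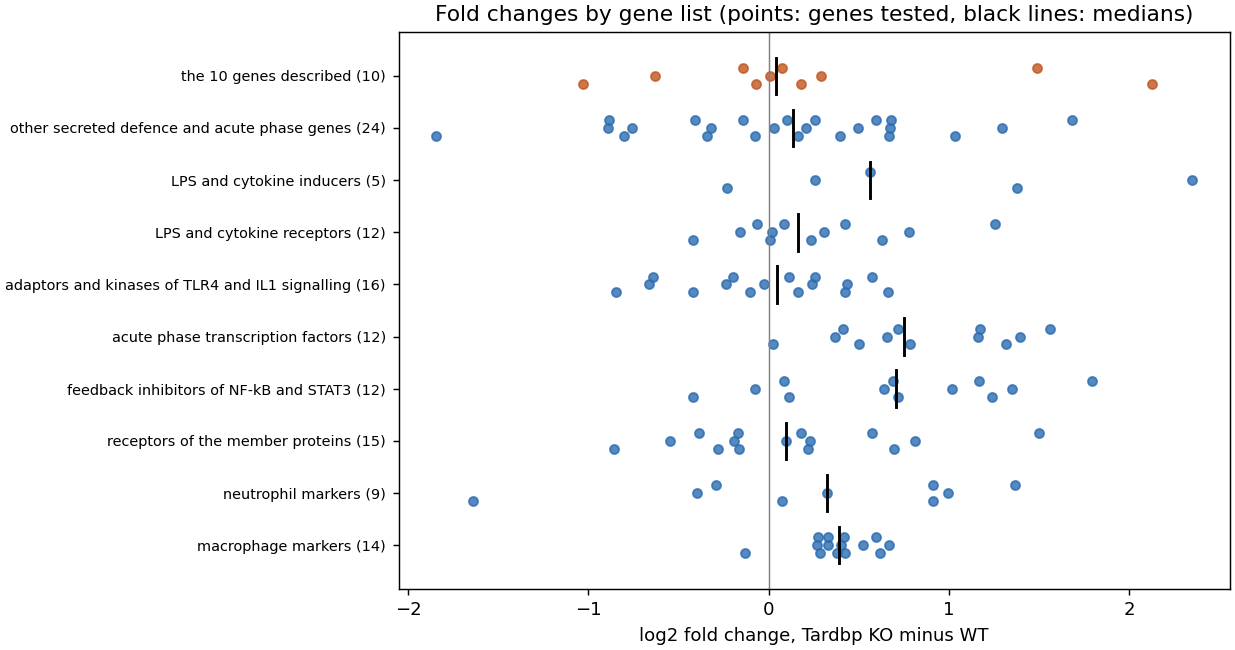
Log2 fold change (horizontal axis, *Tardbp* KO minus WT) of every gene tested in each list (1 point per gene, number of genes in parentheses), with the list's median as a black line. The 10 genes described (orange, median 0.04) lie on both sides of 0, whereas the 12 transcription factors (median 0.75) all lie above it.

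The genes whose levels ran most closely with those of each member were read off as the highest Pearson correlations of log2(CPM + 1) over the 7 libraries, among 17175 genes. For *Ltf* the closest was *Atpif1* (0.994), for *Lcn2* *Pttg1* (0.986) and for *Saa2* *Plekhm1* (0.987). *Brms1* was the closest to *Saa1* (0.981) and the third closest to *Lcn2* (0.977), at 39.3, 70.2 and 57.7 CPM in WT and 43.3, 59.1, 60.9 and 76.1 CPM in KO. For *Saa3* it was *Tbkbp1* (0.980), for *Lbp* *Plekhg6* (0.973), for *Cd14* *Fam134a* (0.994), for *S100a8* *Gm5453* (0.978), for *S100a9* *Slc44a2* (0.978) and for *Spp1* *Tmbim4* (0.998). The points share libraries and scaling factors, and the values are descriptions only.

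TDP-43 binds runs of the dinucleotide UG in RNA. The longest annotated coding transcript of each of the 10 genes was searched for runs of at least 3. It held 915 bases in *Lcn2* and 2525 in *Lbp*, where the annotated exons cover 2302 and 4831 bases. The rest was not searched. *Ltf* had 4 runs with 15 dinucleotides in all, the longest of 6, which was more than in 87.4% of 15112 genes with a coding transcript. These counts were not adjusted for transcript length. *Saa1* and *Saa2* had 1 run of 3 each, and the searched transcripts of the other 7 genes had none, as did 28.5% of all genes.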

How the data were processed

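The deposited file holds whole-number counts per gene, which the authors made by mapping paired-end reads with STAR to NCBIM37 (mm9) and counting exons of GENCODE vM1 with featureCounts 1.4.6-p5, without strand, pair or multimapping options. STAR is given as version 2.5.2a in the submitters' processing notes. Gene symbols and coordinates matched for all 37310 genes. Left out here were mitochondrial (37) and ribosomal (580) genes, and genes that did not reach 5 counts in 4 or more libraries. Genotypes were compared with edgeR 4.0.16 (TMM, quasi-likelihood test, Benjamini-Hochberg adjustment over 17175 genes, limits as in the study's methods). edgeR's exact test and DESeq2 1.42.0 were alternatives. Exact permutation tests used log2(CPM + 1). The fit was tested on simulated data. RPKM used exon length.

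The 10 genes and all lists were chosen with earlier results of these data known. In other lists, genes are named that the exact test called or that had the 2 highest or 2 lowest fold changes. For each member the 3 nearest genes were considered. Outside this rule were *Tlr4*, *Il6*, *Il17a*, *Il22*, *Ly6g*, *Ngp*, *Camp*, *Lrg1*, *Slpi*, *Muc1* and *Ptx3*, named after their values were seen. Promoters and their build are from RefSeq, transcripts from GENCODE vM1. One library named in the file's command line was not analysed here.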

Additional observations from a re-analysis of the deposited data

Results flagged for a closer look

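None of the 10 genes had a KO library that stood far apart from the other 3 KO libraries, by the ratio of its gap to the nearest library over the group's range (Dixon's rule for 4 values). Of 83 genes checked, 4 genes of the other lists did, and chance alone gives such a library in about 1 in 20 groups. *Irak1*, a kinase of TLR4 and IL1 signalling, was at 116 CPM in KO replicate 1 and at 79.7 to 83.5 CPM in the other 3. *Cebpb* was at 310.4 CPM in KO replicate 4 against 136 to 161 CPM. The casein gene *Csn3* was at 17703 CPM in KO replicate 4 against 12097 to 12971 CPM. *Acta2*, a myoepithelial actin, was at 1442 CPM in KO replicate 1 against 369 to 512 CPM.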

How the results depend on the processing

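No setting called any of the 10 genes. The count of genes called over all genes was 1 without the filter on low counts, 1 at an adjusted p under 0.05, 426 with edgeR's exact test (179 higher and 247 lower in KO) and 568 with DESeq2 (288 and 280), and 0 in the other settings, each library left out in turn included. Without scaling factors the median of all genes was 0.42 in place of 0.05 (log2), and *Saa2* (0.12) and *Lbp* (0.26) turned sign, both staying under that shift. The sign of *Saa3* turned with the milk protein genes left out (-0.0088). The labels do not say whether the replicate numbers pair the samples. Deviations of same-numbered libraries from their genotype means correlated at 0.437, 0.0744 and -0.0836. The first was the highest of all WT and KO combinations. Such values cannot decide on pairing, since the deviations within a genotype are bound to each other. With the replicate number as a block no gene was called, the median of the 10 genes was -0.12, and *Lcn2* (-0.14), *Saa1* (-0.038) and *Saa3* (-0.11) turned sign. On lane 4 alone (1 WT and 2 KO libraries, no test) *Saa1* was at -0.32 and *Saa3* at -0.61, with 1 of the 10 genes above and 3 below the WT library. Leaving out 1 library moved the median of the 10 genes from -0.39 to 0.59 and the count of genes with separate groups from 0 to 1 in each direction. It turned signs within -0.049 to 0.62 for *Ltf*, -0.22 to 0.43 for *Lcn2*, -0.59 to 1.00 for *Saa1*, -0.95 to 0.56 for *Saa2*, -0.53 to 0.89 for *Saa3* and -0.25 to 0.15 for *Lbp*, while *Cd14* (1.02 to 2.71), *S100a8* (-1.36 to -0.75), *S100a9* (0.71 to 2.49) and *Spp1* (-1.002 to -0.36) kept theirs. The cause of these turns was not tested. With 4 to 264 counts per library, depth limits *S100a9* the most, and it did not pass a filter of 10 counts in every library.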
